A study of Homo sapiens with 18 samples.

Results

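The genes described here are the TCF/LEF transcription factors (TCF7, TCF7L1, TCF7L2 and LEF1) and the TLE corepressors (TLE1, TLE2, TLE3 and TLE4). They were followed across a panel of cell lines labelled as colorectal cancer. A gene was read from probe sets annotated to its symbol alone, and where several existed the probe set with the highest mean over the 18 lines was used. This gave values for 7 of the 8 listed genes, out of 19774 genes measured. For TCF7 no probe set with that single symbol was found in the annotation used, and it is not analysed here.

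Total RNA of 18 established human cell lines labelled as colorectal cancer (CRC) was measured on 1 expression array per line. The 10 lines grown in DMEM/F-12 with 15 mM HEPES were CAR1, CL40, HT55, HUTU80, LS180, OUMS23, RKO, SW1463, SW48 and SW948. The 8 lines grown in RPMI-1640 with 25 mM HEPES and added glucose and pyruvate were COLO320HSR, HCT116, KM12, LS513, MDST8, NCIH716, RCM1 and SNUC1. All cultures received fetal bovine serum, penicillin and streptomycin, and none carried a treatment. No line was measured more than once, so no replicate error exists for a line, and each line stands only for itself.

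TCF/LEF proteins bind DNA of WNT target genes through an HMG box. When WNT signalling is off they hold TLE proteins, the human relatives of Drosophila Groucho, which recruit histone deacetylases and keep the targets silent. When beta-catenin accumulates, as it does in most colorectal cancers through loss of APC or mutation of CTNNB1, it binds the same factors and the targets are transcribed. AXIN2, a scaffold of the complex that destroys beta-catenin, is itself such a target and feeds back on the pathway, so its mRNA is widely used as a readout.

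Values are log2 intensities, on which 1 unit is a doubling. Levels of different genes are not set against each other, since probe sets differ in brightness. A value above 4.74 was read as above background, a level taken from probe sets of genes restricted to other tissues. By this level each array detected 9444 to 9995 genes. The mean of the 7 measured colorectal epithelial markers was highest in HT55 and only 3.63 in MDST8, under the background level, so the labelled cell type is not equally visible in every line. The mean of the 5 mesenchymal markers was highest in MDST8, at 10.3, and that of the 4 neuroendocrine markers in NCIH716, at 8.45. Among these 4, SYP was above background in none of the 18 lines and reached 3.96 in NCIH716. Of 5 measured lymphocyte markers 4 were above background in none of the 18 lines, and PTPRC was in 2, reaching 6.68 in SW48. Of 4 endothelial markers 3 were above it in none, and CDH5 was in 1, at 5.87 in OUMS23. Of 4 fibroblast markers PDGFRB was above it in none, COL1A1 in 3, COL1A2 in 1 and DCN in 1, at 11.27 in HUTU80. In bulk RNA, fewer cells of a type and less RNA per cell cannot be told apart.

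Promoters of TLE4 and LEF1 are shown because TLE4 held the matches to a core TCF/LEF motif and LEF1 had the widest range of level. The motif searched was CTTTGA or its reverse TCAAAG, in the 250 bases before each RefSeq start listed for a gene, build GRCh38.p14. It was found in 2 of 15 windows of the genes described, both of TLE4, and in 3937 of 35116 windows of all genes (11.2%). The longer CTTTGAT (reverse ATCAAAG), which contains the shorter motif, was in 0 of the 15 windows and in 794 of the 35116 (2.26%). The windows follow 5′ to 3′ on the gene's strand, with a motif in capitals. The first TLE4 window lies at chr9:79571715-79571964 on the plus strand, with the motif on the reverse strand at position -19 from the start. The second lies at chr9:79572927-79573176 on the plus strand, with the motif on the forward strand at position -114. The LEF1 window, at chr4:108166302-108166551 on the minus strand, holds none. It precedes the only LEF1 start listed and lies inside the span of the gene. The bases before the outer 5′ end of LEF1 were not searched.
TLE4 promoter 1: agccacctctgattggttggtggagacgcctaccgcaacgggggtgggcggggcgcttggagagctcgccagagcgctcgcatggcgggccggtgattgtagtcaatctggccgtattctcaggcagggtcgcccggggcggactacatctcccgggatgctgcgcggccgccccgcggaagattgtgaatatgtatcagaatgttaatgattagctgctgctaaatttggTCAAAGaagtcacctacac
TLE4 promoter 2: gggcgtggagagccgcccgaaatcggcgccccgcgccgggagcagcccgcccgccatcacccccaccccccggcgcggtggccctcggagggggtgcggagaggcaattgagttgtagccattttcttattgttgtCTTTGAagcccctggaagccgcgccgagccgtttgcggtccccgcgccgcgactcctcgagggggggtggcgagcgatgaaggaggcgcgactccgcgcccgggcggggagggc
LEF1 promoter: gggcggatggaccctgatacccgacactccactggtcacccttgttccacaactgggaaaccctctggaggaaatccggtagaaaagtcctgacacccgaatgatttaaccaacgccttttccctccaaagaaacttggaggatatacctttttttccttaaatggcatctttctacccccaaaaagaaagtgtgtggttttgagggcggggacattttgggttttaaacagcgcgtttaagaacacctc
A match is a description of letters and not a site shown to be bound.

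Among the DNA-binding factors, TCF7L2, TCF7L1 and LEF1 differed in how they were spread over the panel. TCF7L2 was detected in all 18 lines with an SD larger than that of 60.4% of the tested genes, LEF1 was detected in 13 lines over a wide range, and TCF7L1 was at background in 15 lines. Of the 7 genes, TCF7L2, TLE1 and TLE3 were above background in every line, where 35.2% of all measured genes were. A range of at least 3 log2 units was seen in 6 of the 7 genes, all but TLE3, where 37.1% of the genes above background in at least 1 line had such a range, with values under background taken as measured.

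TCF7L2, the TCF best known in intestinal epithelium, where it maintains crypt stem cells in mice, had a median of 10.12. Its highest levels were 11.83 in HUTU80, 11.43 in HCT116 and 10.87 in SW48, and its lowest were 9.47 in CAR1, 9.36 in RKO and 8.82 in MDST8. The range of 3.01 log2 units is 8.0-fold, and the SD over lines was 0.75. The order of its levels is better fixed than for the other genes, because 5 of its other 6 probe sets correlated with the chosen probe set over lines at r of 0.93 to 0.99. Even so, 11 of the 17 steps between neighbouring lines were smaller than the SD of 0.17 between its 2 brightest probe sets. HUTU80 and HCT116 therefore stand apart at the top and MDST8 at the bottom, and most neighbouring lines between them cannot be ranked against each other.

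LEF1, a factor that is largely absent from normal adult colon and is switched on in many colon tumours, had the widest spread of the 7 genes. Its SD of 2.49 was larger than that of 97.7% of the tested genes, whose median SD was 0.63. It was highest in COLO320HSR at 10.68, followed by 9.34 in LS513, 9.31 in MDST8, 8.83 in RKO, 8.53 in SW948 and 8.01 in KM12. Intermediate levels were 7.80 in CL40, 7.62 in SNUC1, 6.46 in RCM1, 5.95 in HT55, 5.82 in SW1463, 5.59 in CAR1 and 5.09 in HUTU80. It was not above background in HCT116 (3.41), NCIH716 (3.26), OUMS23 (3.26), SW48 (3.17) and LS180 (3.03). The highest level was at least 61.3-fold above the background level, which bounds the range since the lower end was not detected. Every step between neighbouring lines was smaller than the SD of 1.71 between the 2 brightest LEF1 probe sets. The other LEF1 probe sets were above background in 3 lines and 1 line. That SD therefore includes the floor of a dim probe set and does not measure the error of the order. Only broad differences in this order are read here.

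TCF7L1, which acts mostly as a repressor and is known from stem cells, was high in 1 line. It reached 9.21 in OUMS23, 6.88 in CAR1 and 5.54 in HCT116, and lay between 2.84 in SW48 and 4.13 in SNUC1 in the other 15 lines. The array held a single TCF7L1 probe set, so no second probe set could be set beside it. OUMS23 therefore holds most of its spread.

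**Figure D1:**
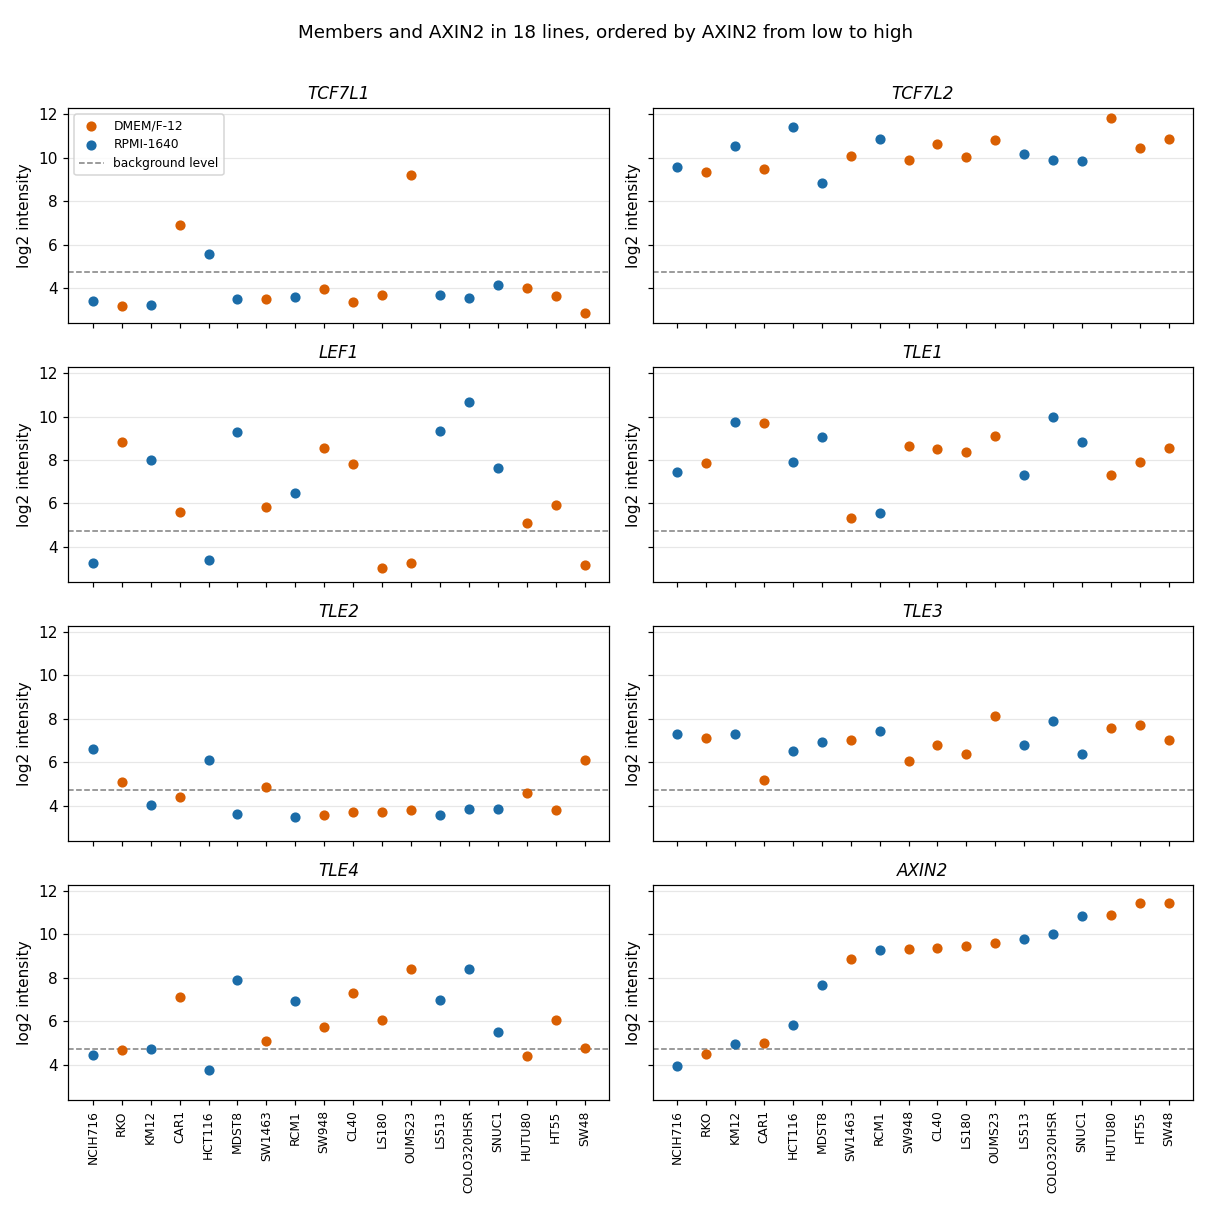
Level of each TCF/LEF and TLE gene and of AXIN2 (log2 intensity, vertical axis) in the 18 lines (horizontal axis, ordered by AXIN2, low to high), 1 point per line coloured by medium, with the background level of 4.74 dashed. TCF7L2, TLE1 and TLE3 lie above the dashed line in all 18 lines, LEF1 in 13 lines and TCF7L1 in 3.

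Among the corepressors, TLE1 and TLE3 were detected in all 18 lines, TLE4 in 13 and TLE2 in 5. TLE1 to TLE4 are full-length Groucho family members with a WD-repeat domain. TLE1 had a median of 8.45 and was highest in COLO320HSR at 9.97, KM12 at 9.76 and CAR1 at 9.69. It was lowest in RCM1 at 5.54 and SW1463 at 5.32, which stand below the next line, LS513 at 7.31. Its range was 25.2-fold. TLE3 was the least variable, with an SD of 0.71 around a median of 7.03. It ran between 5.17 in CAR1 and 8.13 in OUMS23, with COLO320HSR next at 7.92.

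TLE4 was highest in COLO320HSR and OUMS23, both at 8.39, and in MDST8 at 7.92. CL40 had 7.29, CAR1 7.13 and RCM1 6.92, with LS513 between CAR1 and RCM1. The gene was not above background in KM12 (4.73), RKO (4.68), NCIH716 (4.45), HUTU80 (4.39) and HCT116 (3.75), while SW48 at 4.76 lay just over the level. Its highest level was at least 12.5-fold above the background level, and all 17 steps between neighbouring lines were within the SD of 1.02 between its 2 brightest probe sets. The second of these was above background in 2 lines, so this SD too includes the floor of a dim probe set.

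TLE2 was above background in NCIH716 at 6.63, SW48 at 6.12, HCT116 at 6.09, RKO at 5.08 and SW1463 at 4.86. The other 13 lines lay between 3.49 in RCM1 and 4.59 in HUTU80. The second TLE2 probe set had r = 0.94 with the first over 18 lines but was above background in 1 line. TLE2 lies between TLE6 and TLE5 on chromosome 19. TLE5, a short family member that lacks the WD-repeat domain, was above background in every line, at 9.09 in NCIH716 and 5.56 in OUMS23 with the other 16 lines between 7.34 and 8.32. OUMS23, the line with the lowest TLE5, was the line with the highest TCF7L1. TLE6 was above background in LS180 alone, at 4.86.

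The relation to AXIN2 asks whether the amount of mRNA for the factors that read the WNT signal moves with the readout. AXIN2 was highest in HT55 and SW48, both at 11.44, had a median of 9.35, and was lowest in NCIH716 (3.92), RKO (4.49), KM12 (4.95), CAR1 (5.02) and HCT116 (5.82). The remaining line nearest to these was MDST8 at 7.65. None of the 7 genes was related to AXIN2 at an adjusted p under 0.05 by Pearson correlation with 100000 permutations, Benjamini-Hochberg adjusted over all 13194 other genes tested, of which 0% were called. Their lowest adjusted p was 0.757, for TLE2. At an unadjusted p under 0.05 the count was 0 of 7, where 6.87% of all genes passed. By Spearman correlation the adjusted p was 1 for each of the 7. With this number of permutations a gene standing alone at the smallest possible p would reach an adjusted p of 0.132, so the permutation test could not call a single gene.

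TLE2 and TCF7L2 had the largest correlations with AXIN2. For TLE2, r was -0.43 (permutation p = 0.0719, n = 18) and rho -0.25 (permutation p = 0.31). Without NCIH716 and RKO, the lines farthest from the AXIN2 median, r was -0.14. Leaving out NCIH716 alone gave -0.24, and RKO alone -0.40. SW48 goes against the negative sign, with TLE2 at 6.12 and AXIN2 at 11.44, and without it r was -0.65 (permutation p = 0.00454, adjusted 0.517). In the DMEM/F-12 lines r was -0.07 (permutation p = 0.86, n = 10), and in the RPMI-1640 lines it was -0.74 (exact permutation p = 0.032, adjusted 0.752, n = 8).

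For TCF7L2, r was 0.37 (permutation p = 0.126, adjusted 0.798, n = 18) and rho 0.43 (permutation p = 0.0784). Without NCIH716 and RKO it was 0.19. The DMEM/F-12 lines gave r = 0.77 (permutation p = 0.00762, adjusted 0.962, n = 10) and the RPMI-1640 lines r = -0.11 (exact permutation p = 0.797, n = 8). Whether the media differ in this relation was not tested. Leaving out HCT116 alone gave r = 0.54 (permutation p = 0.027, adjusted 0.826). HUTU80 had the highest TCF7L2 and an AXIN2 level of 10.91, whereas HCT116, second in TCF7L2, had AXIN2 at 5.82.

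LEF1 is itself a target of beta-catenin in several cell types, and its r with AXIN2 was 0.03 (permutation p = 0.918, n = 18; rho = -0.09, permutation p = 0.722). Without NCIH716 and RKO, r was -0.03. RKO and KM12 paired LEF1 levels of 8.83 and 8.01 with AXIN2 at 4.49 and 4.95. SW48, LS180 and OUMS23 had LEF1 at background and AXIN2 at 11.44, 9.45 and 9.59. The sign differed by medium, with r = -0.45 in the DMEM/F-12 lines (permutation p = 0.191, n = 10) and r = 0.65 in the RPMI-1640 lines (exact permutation p = 0.0899, n = 8).

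The other 4 genes also had small correlations over the 18 lines. For TLE4, r was 0.29 (permutation p = 0.246) and rho 0.24 (permutation p = 0.342), and without NCIH716 and RKO r was 0.09. TLE3 had r = 0.26 (permutation p = 0.299) and rho = 0.21 (permutation p = 0.413), and r = 0.44 without those lines but 0.06 without CAR1 alone, the line lowest in TLE3. TLE1 had r = -0.12 (permutation p = 0.655) and rho = 0.01 (permutation p = 0.975), and r = -0.26 without them. TCF7L1 had r = -0.09 (permutation p = 0.761) and rho = 0.22 (permutation p = 0.379), and r = -0.27 without them. TCF7L1 and TLE1 changed sign between r and rho, and TLE4 and TLE3 changed sign between the media. Within the DMEM/F-12 lines r was -0.09 for TLE4, 0.51 for TLE3, -0.19 for TLE1 and -0.20 for TCF7L1. Within the RPMI-1640 lines it was 0.67 for TLE4, -0.07 for TLE3, -0.04 for TLE1 and -0.03 for TCF7L1. In the 13 lines with AXIN2 over 7, a setting chosen after seeing the data, r was 0.58 for TCF7L2 (permutation p = 0.0363, adjusted 0.855), 0.45 for TLE2, 0.21 for TLE3, 0.11 for TLE1, -0.07 for TCF7L1, -0.33 for LEF1 and -0.50 for TLE4 (permutation p = 0.0816). Against all 18 lines the sign was turned for TLE2, TLE1, LEF1 and TLE4. Over the 7 genes and 18 lines the median r was 0.03 and the median absolute r 0.26, against -0.01 and 0.19 over all genes tested.

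**Figure D2:**
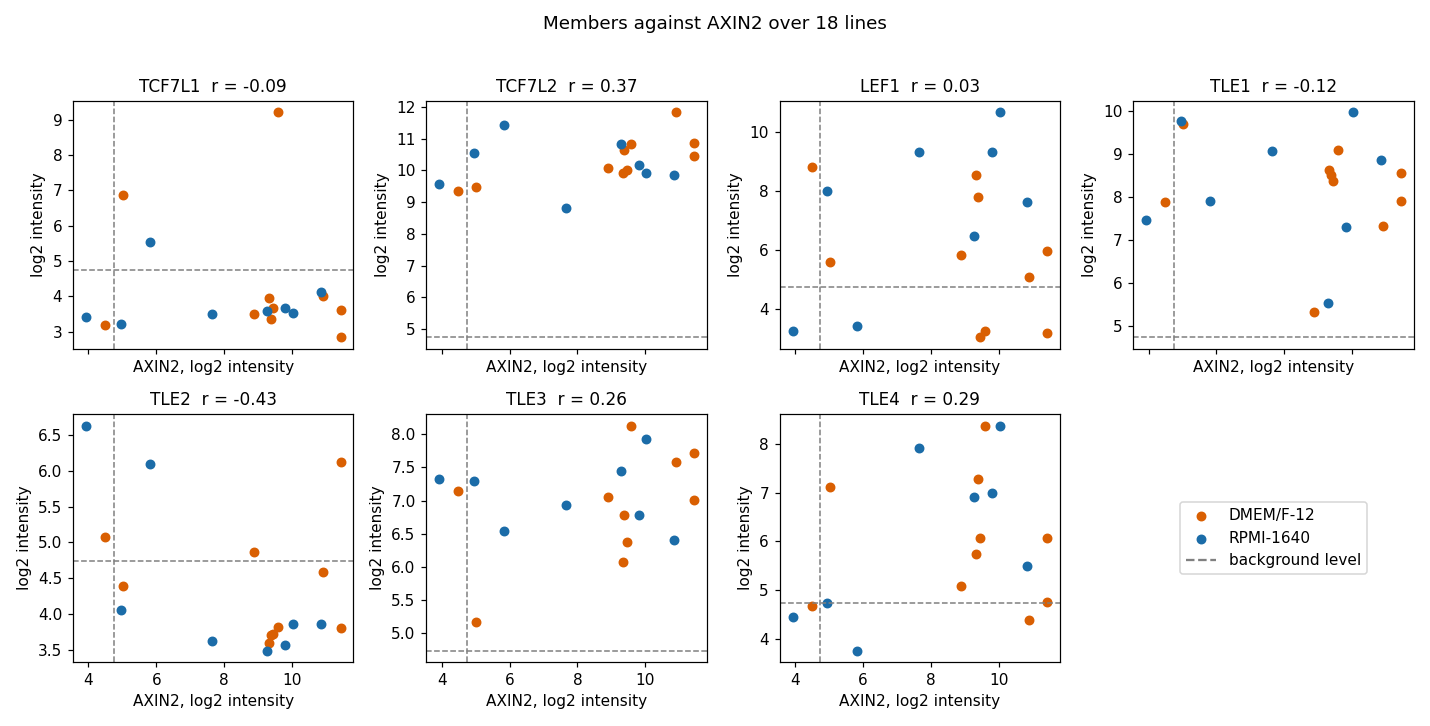
Level of each TCF/LEF and TLE gene (log2 intensity, vertical axis; scales differ by panel) against AXIN2 (log2 intensity, horizontal axis), 1 point per line coloured by medium, with the background level dashed on both axes. The r in the panel titles runs between -0.43 for TLE2 and 0.37 for TCF7L2.

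Other genes of the pathway were set against AXIN2 in the same fit. Of 21 tested WNT targets 18 had r above 0, with a median of 0.41. None passed the adjusted test, and 10 were above 0 at an unadjusted p under 0.05, where 3.2% of all genes were. ZNRF3, which removes WNT receptors from the membrane, had r = 0.88 (permutation p = 1e-05, the smallest possible, adjusted 0.066; rho = 0.79, permutation p = 0.0002) and 0.83 without NCIH716 and RKO. In the DMEM/F-12 lines its r was 0.90, in the RPMI-1640 lines 0.86, and in the 13 lines with AXIN2 over 7 it was 0.60. Its relative RNF43 had r = 0.63, the growth factor gene BMP4 0.64, the Dishevelled antagonist NKD1 0.61, the WNT inhibitor APCDD1 0.60, the crypt stem cell factor ASCL2 0.58 and the WNT deacylase NOTUM 0.52. The R-spondin receptor LGR5 had r = 0.38 and the transcription factor SP5 0.36, with unadjusted p above 0.05. SP5 was highest, at 8.61, in NCIH716, the line lowest in AXIN2. NKD1 (3.87) and its relative NKD2 (5.35) were lowest in that line. AXIN2 therefore does not stand for every target in a line. In the 13 lines with AXIN2 over 7, r was 0.34 for RNF43, 0.44 for BMP4, 0.38 for APCDD1 and 0.59 for NOTUM. There it was 0.10 for NKD1 and for ASCL2, 0.24 for LGR5 and 0.60 for SP5. The 3 targets with r below 0 over the 18 lines were CD44 (-0.30), CCND1 (-0.20) and DKK1 (-0.15). With limma and AXIN2 as covariate, ZNRF3 was the 1 gene called (adjusted p = 0.00459).

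The partners of beta-catenin, TCF/LEF and TLE proteins split evenly around 0, and the destruction complex genes less so. In each of these 4 lists 1 gene passed at an unadjusted p under 0.05, where 6.87% of all genes did. Among 12 nuclear partners of beta-catenin 6 had r above 0 and 6 below, with 1 at an unadjusted p under 0.05, the acetyltransferase EP300 (r = 0.47). CTNNBIP1, which blocks beta-catenin from TCF, had r = 0.44 and PYGO2, which reads histone methylation, -0.25. Of 10 tested partners in repression 5 were above and 5 below 0, and 1 passed unadjusted, the kinase NLK (r = 0.49), which phosphorylates TCF/LEF proteins. The deacetylase HDAC2 had r = 0.42 and the kinase HIPK2 -0.31. Of 8 tested destruction complex genes 3 were above 0 and 5 below, and the scaffold AXIN1 passed unadjusted (r = 0.65), with CSNK1A1 at 0.46 and APC at -0.39. Among 12 other factors that recruit TLE proteins 6 lay on each side, and PAX5 passed unadjusted with r = -0.44, in a gene above background in 1 line. PRDM1 had r = 0.46 and HHEX -0.45. None of these lists held a gene with an adjusted p under 0.05.

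Among themselves, the 7 genes formed 21 pairs, of which 10 had r above 0 and 11 below. No pair had an adjusted p under 0.05 over the 92358 relations of these genes with every gene tested, where 0% were called. A pair standing alone at the smallest possible permutation p could not pass this adjustment. The adjusted test therefore cannot decide whether a single pair is related. At an unadjusted p under 0.05, 2 pairs passed, where 7.67% of all relations did. The pair with the largest r in size was TLE2 with TLE4, at -0.69 (permutation p = 0.00117, adjusted 0.485; rho = -0.66, permutation p = 0.0038; n = 18). It was -0.68 without NCIH716 and SW48, -0.62 in the DMEM/F-12 lines and -0.74 in the RPMI-1640 lines. Both genes were above background in 2 lines only, SW48 and SW1463, and in SW48 TLE4 was at the level itself. HCT116 and NCIH716 had TLE2 at 6.09 and 6.63 and TLE4 at 3.75 and 4.45, while COLO320HSR and OUMS23 had TLE2 at 3.86 and 3.82 and TLE4 at 8.39.

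The second pair was LEF1 with TLE2, with r = -0.55 (permutation p = 0.0174, adjusted 0.576; rho = -0.44, permutation p = 0.0672; n = 18). It was -0.66 without COLO320HSR and LS180, -0.19 in the DMEM/F-12 lines and -0.86 in the RPMI-1640 lines. Here too both genes were above 4.74 in 2 lines, RKO and SW1463. TCF7L2 and LEF1 were both detected in 13 lines and had r = -0.44 (permutation p = 0.0661, adjusted 0.678; rho = -0.41, permutation p = 0.0936), with -0.43 in each medium. TLE1 and TLE4, neighbouring protein-coding genes on chromosome 9, had r = 0.32 (permutation p = 0.196; rho = 0.43, permutation p = 0.0742). LEF1 with TLE4 had r = 0.39 (permutation p = 0.113; rho = 0.34, permutation p = 0.173), at -0.17 in the DMEM/F-12 lines and 0.83 in the RPMI-1640 lines.

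**Figure D3:**
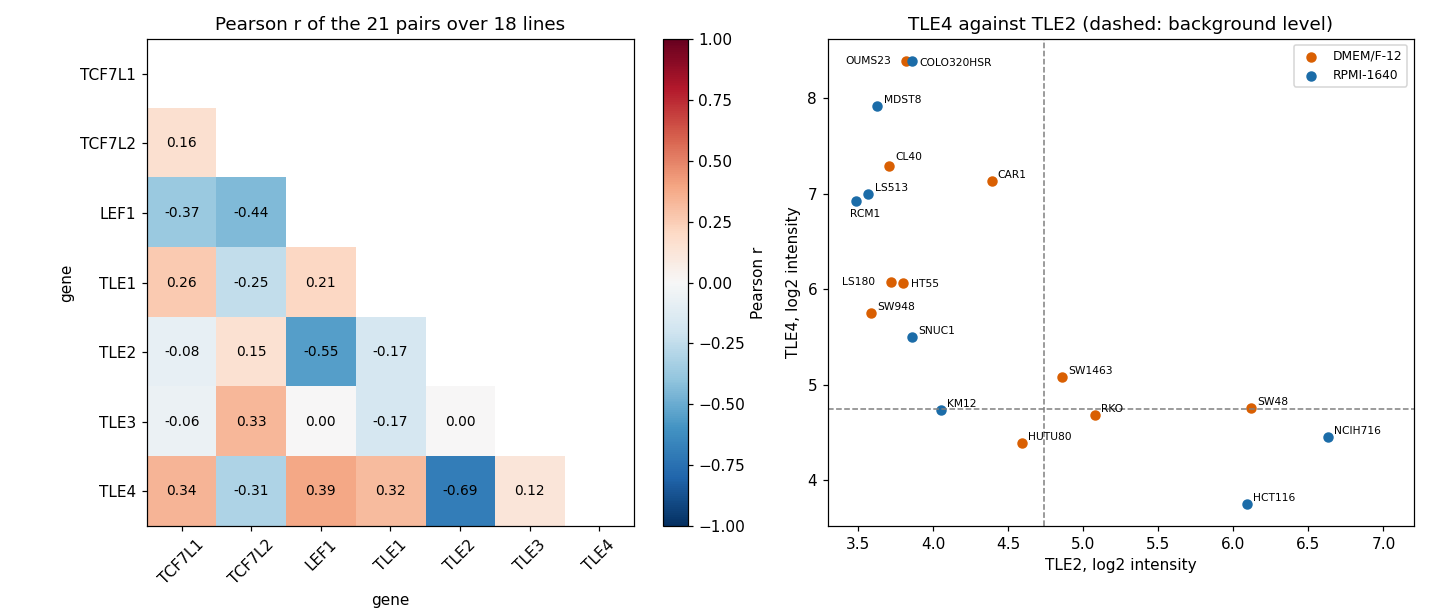
Left, Pearson r of the 21 pairs over 18 lines, with colour from -1 to 1; right, TLE4 against TLE2 (log2 intensity), 1 labelled point per line coloured by medium, with the background level dashed. TLE2 with TLE4 has the largest r in size, at -0.69, and 2 lines lie above both dashed lines.

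The genes whose pattern was most like each member's were taken as the 3 with the highest r over the 18 lines among 11403 genes, as a description with no test. For TCF7L2 they were the osmotic stress factor NFAT5 (0.80), the chromatin reader BRD1 (0.80) and the nuclear receptor NR2F6 (0.79). For LEF1 they were the apoptosome gene APAF1 (0.73), RRP8 (0.69) and the interferon regulatory factor IRF2 (0.69). For TCF7L1 they were LINC02901 (0.94), VAV1 (0.89) and AFAP1L1 (0.89), and all 3 peaked in OUMS23, as TCF7L1 did. VAV1 had a rho of 0.16. For TLE1 they were the mitochondrial fission factor MFF (0.74), SASH1 (0.74) and ALKBH6 (0.71). For TLE2 they were the replication factor WDHD1 (0.83), CALHM2 (0.83) and NRDE2 (0.82). For TLE3 they were EIF1B (0.79), the nuclear pore gene AAAS (0.78) and SPRED3 (0.78), each lowest in CAR1 as TLE3 was. For TLE4 they were the interferon-induced GTPase GBP1 (0.84), SH3PXD2A (0.80) and LPP (0.75).

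The culture medium was the grouping the labels gave, and line and medium cannot be told apart. With limma over all genes, 0 of the 7 genes differed between media at an adjusted p under 0.05, where 0% of the 13195 genes tested did, and each of the 7 had an adjusted p of 0.999. At an unadjusted p under 0.05 it was 0 of 7, where 2.49% of all genes passed. LEF1 had the largest difference. It averaged 5.71 ± 2.16 in DMEM/F-12 lines (SD, n = 10; 3.03 to 8.83, median 5.71) and 7.26 ± 2.74 in RPMI-1640 lines (SD, n = 8; 3.26 to 10.68, median 7.81). The difference was -1.55, with a 95% interval of -3.81 to 0.70 (exact permutation p = 0.193), and the groups overlapped over most of their range.

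TCF7L1 averaged 4.42 ± 2.02 in DMEM/F-12 lines and 3.82 ± 0.74 in RPMI-1640 lines, a difference of 0.60 with an interval of -0.89 to 2.09 (exact permutation p = 0.493). Without OUMS23 the difference was 0.07, and without OUMS23, CAR1 and HCT116, a setting chosen after seeing the data, it was -0.06. TCF7L2 averaged 10.34 ± 0.74 in DMEM/F-12 lines and 10.14 ± 0.80 in RPMI-1640 lines, a difference of 0.20 with an interval of -0.52 to 0.92 (exact permutation p = 0.585). The TLE genes differed less in their means, by -0.10 for TLE1, -0.03 for TLE2, -0.17 for TLE3 and -0.12 for TLE4. Their intervals were -1.34 to 1.13, -1.01 to 0.94, -0.89 to 0.54 and -1.53 to 1.28 for TLE1, TLE2, TLE3 and TLE4. True differences up to these bounds are therefore not excluded by these arrays.

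**Figure D4:**
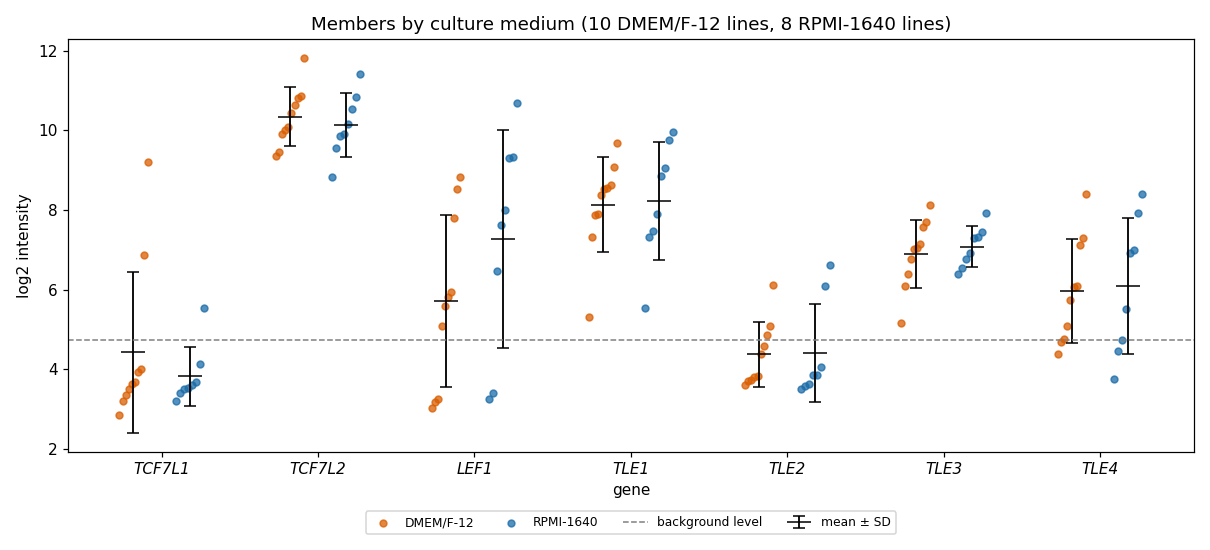
Level of each TCF/LEF and TLE gene (log2 intensity, vertical axis) in the 10 DMEM/F-12 lines (left of each pair) and the 8 RPMI-1640 lines (right), 1 point per line, with mean and SD as bars and the background level dashed. The groups overlap for each of the 7 genes, and LEF1 has the largest difference in means, -1.55.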

How the data were processed

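The authors' deposited table is in log2 intensity, from RMA (affy package) per the submitters' processing notes. Software versions and the build were not given in the sources used here. It holds 54613 probe sets in 18 arrays, with array medians of 3.65 to 3.69, and no further normalization was applied. GEO's platform annotation gave 1 gene to 40914 probe sets, several to 864 and none to 12835.

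Genes restricted to other tissues set the background: 48 of 51 listed were measured, by 73 probe sets, and the 95th percentile of their values was 4.74. MBP and MYL7 in that list reached 9.60 and 11.39, so its upper percentiles may hold signal. Genes above it in at least 1 line were tested (13195). Relations were tested by Pearson and Spearman correlation, two-sided, with 100000 permutations (exact under 10 lines). Media were tested by limma 3.58.1 with trend, in R 4.3.3, with exact permutation of lines for each measured gene of the set. P-values were Benjamini-Hochberg adjusted over all genes and called under 0.05. No gene of the set, nor AXIN2, fell into separate clusters by a gap rule.

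The genes and lists were chosen with earlier results of these data known. Named genes were the set itself, AXIN2, 8 WNT targets, the 3 genes per list with the largest absolute r with AXIN2, list genes past the test, and the 3 genes most like each member. A few others, behind small counts, were picked with values in view. The alternatives covered probe set choices, background levels, scalings, correlation and limma settings, each medium, and the omission of each line in turn. The AXIN2 and medium tests were run on simulated independent genes, with many genes given a planted relation or difference. That setting does not check whether a gene standing alone could pass. P-values measure the spread between lines, and the number of arrays limits precision.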

Additional observations from a re-analysis of the deposited data

Results flagged for a closer look

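TCF7L1 in HCT116, at 5.54, lay far from the other RPMI-1640 lines, which ran between 3.21 and 4.13, by Dixon's critical value at the 95% level. It was the only such value among 14 groups of lines tested, and at this level chance alone flags a share of about 0.05 of groups. In the DMEM/F-12 lines OUMS23 and CAR1 were higher still, at 9.21 and 6.88.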

How the results depend on the processing

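In the alternatives run, 0 of the 7 genes was related to AXIN2 after adjustment (31 alternatives), 0 pairs passed (23), and 0 genes, members included, differed between media (24). Apart from the limma settings, the AXIN2 and pair counts come from permutation. There a gene or pair alone at the smallest possible p could not pass, so these repeats add little. The count of genes related to AXIN2, 0 in the permutation test (907 at an unadjusted p under 0.05), was 1 with limma and AXIN2 as covariate and 1 with limma, AXIN2 and medium (ZNRF3 both times, adjusted p = 0.00459 and 0.0111). Leaving out each line gave 0 to 3 genes. The 3 were DCAF10, WDTC1 and ZNRF3, without LS180, each with an adjusted p of 0.044. The cause was not tested. Of 126 combinations of gene and line, 88 were above background, and 47 were with a higher percentile of the same list (7.58) as the level. At that level LEF1 was detected in 8 lines, TLE4 in 3, TLE3 in 4, TCF7L1 in 1 and TLE2 in 0. With the mean of all probe sets LEF1 was detected in 8 lines, TLE4 in 4 and TLE2 in 3. With the probe set of largest SD TCF7L2 was detected in 11 lines and not 18, TLE3 in 14 and TLE1 in 17. At the 90th percentile (3.84) TCF7L1 was detected in 6 lines, TLE2 in 10 and TLE4 in 17. With a level set without bright background genes (3.75), an alternative chosen after seeing the data, these 3 genes were detected in 6, 12 and 17. Leaving out each line, r with AXIN2 ran between 0.29 and 0.54 for TCF7L2, -0.65 and -0.24 for TLE2, 0.06 and 0.35 for TLE3, 0.19 and 0.38 for TLE4, -0.20 and -0.01 for TLE1, -0.14 and 0.14 for LEF1 and -0.30 and 0.07 for TCF7L1, and r of TLE2 with TLE4 between -0.73 and -0.63. The differences between media ran between -2.12 and -1.07 for LEF1, 0.07 and 0.84 for TCF7L1, 0.01 and 0.39 for TCF7L2, -0.49 and 0.21 for TLE1, -0.23 and 0.29 for TLE2, -0.31 and 0.02 for TLE3 and -0.46 and 0.21 for TLE4. No paired analysis was possible because no line was measured in both media. Dim genes are limited by the background: TLE2 and TCF7L1 vary mostly near it.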
